A study of Arabidopsis thaliana with 57 samples.

Results

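The libraries described here came from unstressed leaves of chains of 3 touching wild-type Arabidopsis thaliana plants, sampled at 4 leaf positions. They were chosen by their labels: the all-wild-type chain (3WT), control light, and the local leaf (L) or systemic leaf 1, 2 or 3 (S1, S2, S3), with 3 libraries at each position. This gave 12 of the 57 libraries of the series. All 12 were Col-0 leaves from plants of 4 to 5 weeks grown at 50 µmol photons per m² and s, with 10 h of light at 22 °C and 14 h of dark at 20 °C. Contact between leaves was secured with 0.05 M phosphate buffer at pH 7.4 with 0.01% Silwet L-77 and 0.05% agarose, and each replicate pooled leaves of 10 to 15 plants. In the series, "local" is the leaf that received elevated light in other libraries, and here it received none. A second chain, WT-hpca1-WT, was sampled in the same way with an hpca1-1 mutant as the middle plant. HPCA1 is a cell-surface receptor kinase for hydrogen peroxide. The 9 Col-0 control libraries of that chain (L, S1 and S3) share no library with the 3WT chain and serve as a separate comparison. By genotype, S2 of that chain belonged to the middle plant, but the labels do not say which plant bore S1, nor the age of each leaf, the hour of harvest or any batch. Since no label ties a replicate to its own set of chains, p-values measure only the spread between these pools, which may be technical.

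Leaves of one rosette differ in age, light and vascular connection, and plants in a chain differ in how many neighbours they touch. The circadian clock of Arabidopsis sets the daily course of many leaf transcripts through morning-phased and evening-phased regulators that repress each other. Jasmonate and salicylate are hormones of defence against chewing insects and necrotrophs and against biotrophs, respectively, and their marker genes are often used to read the state of a leaf.

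Expression was measured by RNA sequencing as FPKM, fragments scaled to transcript length and to the library's mapped fragments. Sums over all genes ran from 766799 to 784445 FPKM per library, and 17191 to 17374 genes reached 1 FPKM. Fragment totals are unknown, and relative depth, read from the spacing of low FPKM values, ran from 0.779 to 1.22. Depth was lowest at S2 (0.779 to 0.985) and highest at S3 (1.02 to 1.22), and its part in the differences was not tested. Replicates correlated with r of at least 0.993 on the log scale. Over 12537 genes at a mean of 5 FPKM or more, the SD of the difference between 2 replicates was 0.133 to 0.174 (log2), and the median between positions ran from 0.173 for S2 and S3 to 0.215 for L and S1. HPCA1 (AT5G49760) lay at 56.5 ± 2.2, 55.6 ± 1.24, 53.4 ± 1.54 and 53.6 ± 0.387 FPKM at L, S1, S2 and S3 (SD, n = 3), so all 4 positions carried the transcript. The tissue label was checked against marker lists. The 23 photosynthesis genes summed to between 132000 and 145000 FPKM in each library, the 8 flower and the 8 shoot apex markers each stayed under 1 FPKM, and 10 of the 12 root markers did so as well. The main root marker above that level was PYK10, a beta-glucosidase of endoplasmic reticulum bodies, with 33.4 to 42.4 FPKM at L and 20.2, 20.2 and 19.3 at S2. In pools of whole leaves, fewer cells of a type and less RNA per cell cannot be told apart.

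Differences between positions were small. Of 18735 genes tested with limma on log2(FPKM + 1), 3350 differed over the 4 positions at an adjusted p under 0.05, which is 17.9%. Genes that pass this threshold are said to be called, and to rise or fall. Against L, 2292 genes were called at S1 (12.2%), 1659 at S2 (8.86%) and 1957 at S3 (10.4%), and these comparisons share the L libraries. Between S2 and S3, 728 genes were called (3.89%), between S1 and S2 888 (4.74%; higher at S1 for 1.86%), and between S1 and S3 1069 (5.71%; higher at S1 for 3.12%). The median size of a called difference was 0.24 (log2) in all 6 comparisons, and changes of at least 1 (log2) numbered 27 at S1, 29 at S2 and 29 at S3 against L, and 7 between S2 and S3. Against L, 1136 genes rose (6.06% of those tested) and 1156 fell (6.17%) at S1, 1023 rose (5.46%) and 636 fell (3.39%) at S2, and 934 rose (4.99%) and 1023 fell (5.46%) at S3. S2 was higher than S3 for 448 genes (2.39%) and lower for 280 (1.49%). Some splits depended on scaling: 38.3% of the genes called at S2 against L were lower as deposited, 50.0% after median-of-ratios scaling and 50.4% after quantile normalization. For S2 against S3 these shares were 38.5%, 62.9% and 55.1%, and for S1 against S2 60.7%, 42.8% and 45.3%. The median of all genes lay between -0.02 and 0.03 (log2) as deposited in these 6 comparisons.

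**Figure D1:**
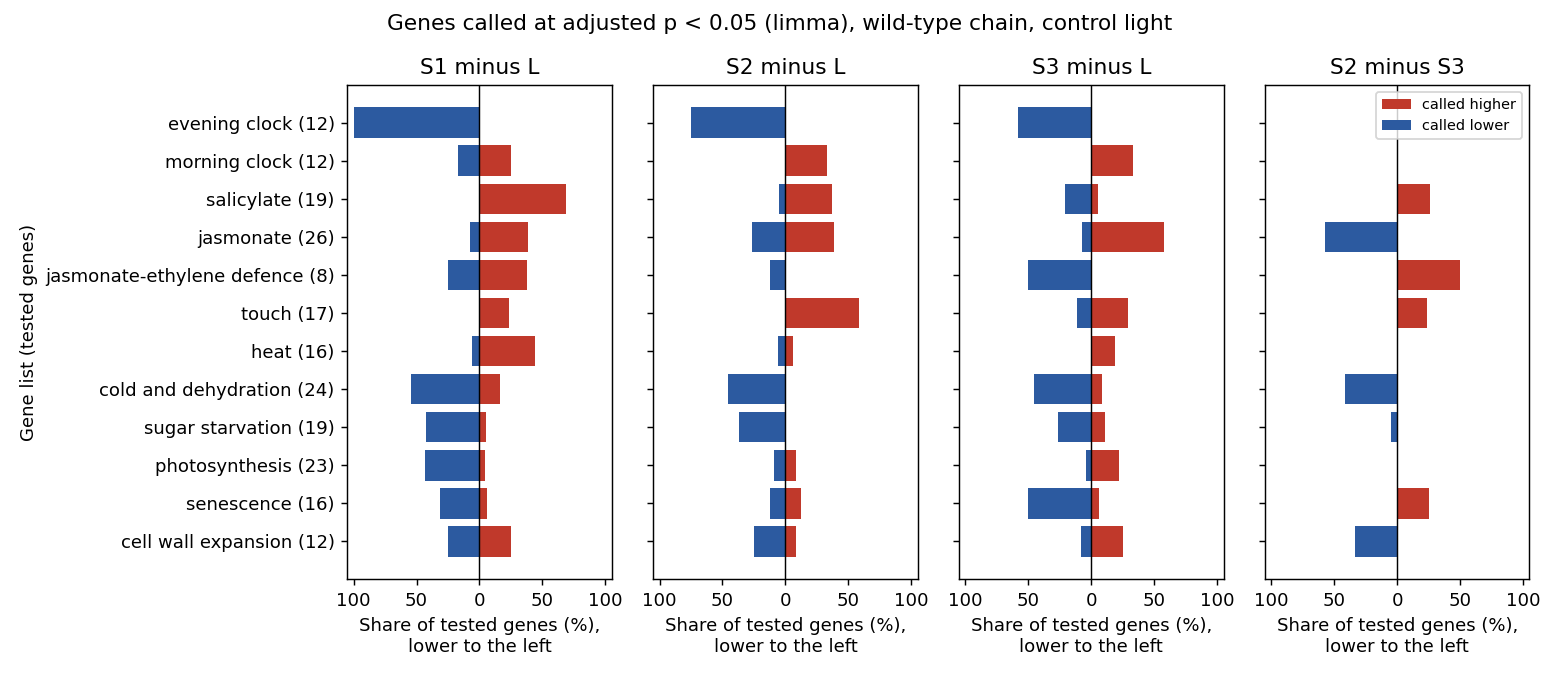
Share of the tested genes of 12 lists (rows, number tested in brackets) called higher (red, to the right) or lower (blue, to the left) in 4 comparisons of leaf positions of the 3WT chain in control light. The x axis is the percentage of the list. All 12 tested evening genes were lower at S1 than at L, and none was called between S2 and S3.

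Genes that peak towards the evening were mostly higher in the local leaf than in the systemic leaves. The list held clock components (TOC1, GI, ELF3, ELF4, LUX, PRR3, PRR5, NOX), the blue-light photoreceptor FKF1, the clock-regulated RNA-binding proteins GRP7 and GRP8, and the clock- and cold-regulated COR27 and COR28. NOX did not pass the filter. Of the 12 tested, 12 fell at S1 against L (6.17% of all genes fell there), 9 at S2 (3.39% of all genes) and 7 at S3 (5.46% of all genes), and none rose. The median difference from L was -0.66 at S1, -0.41 at S2 and -0.32 at S3 (log2), against medians over all genes between -0.01 and 0.02. Promoters of the most abundant member, GRP7, and of 3 clock components are shown because they carry the evening element AAAATATCT, a motif bound by clock proteins. The sequences are the 250 bases before the annotated gene start in TAIR10.1, read 5′ to 3′ on the gene's strand, with the element in capitals in either orientation (AGATATTTT is the reverse).
GRP7, AT2G21660, chr2:9266558-9266807 (minus strand): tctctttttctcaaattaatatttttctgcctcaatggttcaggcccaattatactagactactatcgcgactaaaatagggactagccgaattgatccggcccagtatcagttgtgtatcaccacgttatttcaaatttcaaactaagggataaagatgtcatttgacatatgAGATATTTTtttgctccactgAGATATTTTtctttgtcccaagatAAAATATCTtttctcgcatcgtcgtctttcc
TOC1, AT5G61380, chr5:24674713-24674962 (plus strand): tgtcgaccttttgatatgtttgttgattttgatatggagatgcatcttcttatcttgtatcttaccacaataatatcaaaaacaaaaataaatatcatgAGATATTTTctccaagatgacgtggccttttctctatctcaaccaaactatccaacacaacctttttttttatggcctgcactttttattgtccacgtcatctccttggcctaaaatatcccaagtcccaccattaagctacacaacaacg
PRR5, AT5G24470, chr5:8358547-8358796 (minus strand): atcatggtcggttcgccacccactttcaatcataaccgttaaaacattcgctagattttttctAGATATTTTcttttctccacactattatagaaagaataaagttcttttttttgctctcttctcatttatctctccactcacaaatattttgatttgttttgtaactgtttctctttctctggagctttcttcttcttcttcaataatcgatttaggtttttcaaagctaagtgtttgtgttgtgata
LUX, AT3G46640, chr3:17182792-17183041 (plus strand): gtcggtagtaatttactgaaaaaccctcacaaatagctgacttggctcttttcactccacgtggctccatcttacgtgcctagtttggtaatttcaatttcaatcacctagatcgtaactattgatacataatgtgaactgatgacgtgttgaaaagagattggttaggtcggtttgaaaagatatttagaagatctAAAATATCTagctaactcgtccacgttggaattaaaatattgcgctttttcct
GRP7 holds 3 copies and each of the others 1. In the window from 250 bases before to 50 after the start, on both strands, the letters were found in 9 of the 13 evening genes (69.2%), in 2 of the 12 morning genes (16.7%) and in 773 of 27443 protein-coding genes (2.82%). This is a description of the list, not a sign of binding in these leaves.

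GRP7 measured 568, 504 and 514 FPKM in the L libraries, 304, 328 and 305 at S1, 381, 370.5 and 401 at S2 and 393, 416 and 398 at S3. The L libraries lay above all others and the S1 libraries below all others. The differences from L were -0.76 ± 0.06 at S1 (log2 ± SE, adjusted p = 6.82e-11), -0.46 ± 0.06 at S2 (adjusted p = 3.32e-06) and -0.39 ± 0.06 at S3 (adjusted p = 3.51e-05). PRR5, a pseudo-response regulator, measured 16.1, 15.8 and 16.3 FPKM at L, 9.93, 9.97 and 9.39 at S1, 13.3, 12.3 and 11.4 at S2 and 15.72, 13.4 and 14.7 at S3. It fell at S1 and S2, and at S3 the libraries lay just below those of L, a difference that was not called (adjusted p = 0.408). GI, a scaffold that stabilises clock proteins, measured 17.7, 17.39 and 18.1 FPKM at L and 13.7, 11.2 and 12.8 at S1, and it fell at all 3 systemic positions. TOC1, a core repressor of the morning loop, fell by 0.26 ± 0.07 at S1 (log2, adjusted p = 0.0073). LUX, the DNA-binding part of the evening complex, fell at S1 (-0.39 ± 0.06, adjusted p = 2.88e-05) but was at 7.35 ± 0.341 and 8.29 ± 0.343 FPKM at L and S3 (SD, n = 3), a difference that was not called (adjusted p = 0.135). S1 was lower than S2 for 4 of the 12 genes (2.88% of all genes were) and lower than S3 for 6 (2.59% of all genes were), and no evening gene was called between S2 and S3. The count for S1 below S2 was 2 with a pseudocount of 0.1, with S1 and S2 alone in the fit, or without replicate 2 of S1 or of S2. Of the 12 morning genes 3 rose (6.06% of all genes did) and 2 fell (6.17%) at S1. At S2 4 rose (5.46%), and at S3 4 rose (4.99%). The rises at S1 numbered 0 without replicate 1 of S1 or replicate 3 of L, and 1 without replicate 3 of S1 or replicate 1 of L. Those at S2 numbered 2 after quantile normalization, with L and S2 alone in the fit, or without replicate 2 or 3 of S2. Those at S3 numbered 1 without replicate 3 of S3 or replicate 1 or 3 of L, and 2 without replicate 2 of S3 or with L and S3 alone in the fit. With a pseudocount of 0.1, 10, 6 and 3 evening genes fell at S1, S2 and S3. The labels give no harvest time for any position.

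**Figure D2:**
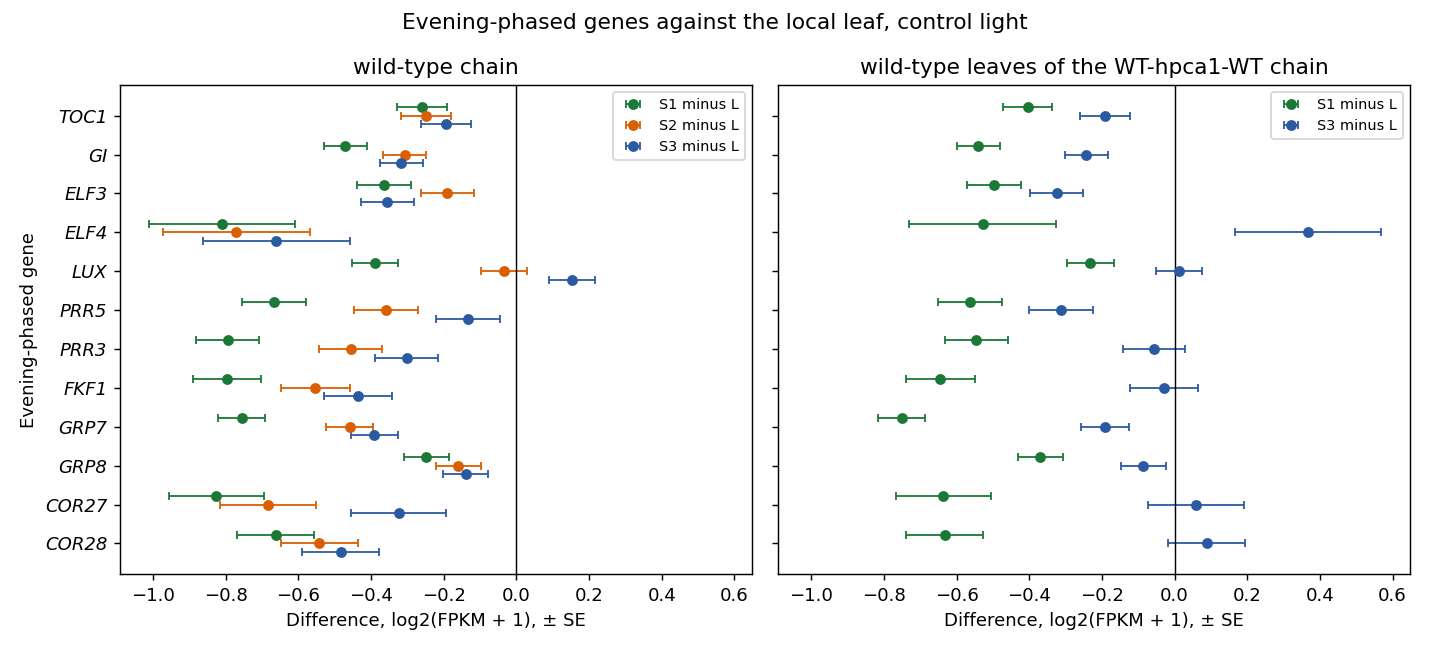
Difference from the local leaf in log2(FPKM + 1), with its SE, for the 12 tested evening genes. Left, S1, S2 and S3 of the 3WT chain; right, the wild-type positions S1 and S3 of the WT-hpca1-WT chain, each against its own local leaf. All 12 genes lie below 0 at S1 in both chains, and at S3 of the WT-hpca1-WT chain 5 were called lower.

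DRM1 and DRM2, dormancy-associated genes repressed by sugar, were also highest at L and lowest at S1. DRM2 measured 298, 295 and 306 FPKM at L, 173, 181 and 176 at S1, 231, 236 and 243 at S2 and 243, 254 and 239 at S3, with the L libraries above and the S1 libraries below all others. DRM1 fell by 0.82 ± 0.09 at S1 (log2 ± SE, adjusted p = 9.91e-09). In the sugar starvation list, 8 of 19 tested genes fell (6.17% of all genes did) and 1 rose (6.06%) at S1. At S2 7 fell (3.39%), and at S3 5 fell (5.46%) and 2 rose (4.99%). Leaving out 1 library brought the falls at S2 to 4 (without replicate 1 or 2 of L) and those at S3 to 3 (without replicate 1 or 3 of S3). The rises at S3 numbered 0 without replicate 2 of L, and with L and S3 alone in the fit, while with L and S2 alone 4 fell at S2. SEN1, a dark-induced gene, was lower at S1 (39.1 ± 1.3 FPKM) than at L (58 ± 3.04, SD, n = 3), while ASN1, an asparagine synthetase, was higher (120.5 ± 2.22 and 106 ± 2.65). In the WT-hpca1-WT chain 10 of the 19 listed genes fell (13.8% of all genes did) and 1 rose (7.84%) at S1. At S3 of that chain 1 fell (18.4%) and 2 rose (5.99%), with 6 rises after median-of-ratios scaling.

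At S1, genes of salicylate and N-hydroxypipecolate immunity were higher than at L. Of the 19 tested, 13 rose (6.06% of all genes rose there) and none fell, with a median of 0.28 (log2). N-hydroxypipecolate is a mobile signal of systemic immunity, and genes for its synthesis were on the list. ALD1, an aminotransferase at the start of pipecolate synthesis, measured 6.05, 5.91 and 6.01 FPKM at L and 10.0, 9.69 and 11.6 at S1, a rise of 0.71 ± 0.11 (log2 ± SE, adjusted p = 1.02e-05). SARD4, the reductase that completes pipecolate, measured 20.0, 20.4 and 19.1 at L and 26.1, 30.1 and 28.2 at S1 (adjusted p = 3.15e-08). FMO1, which hydroxylates pipecolate, was at 4.95 ± 0.263 FPKM at L and 5.09 ± 0.458 at S1 (SD, n = 3), a difference that was not called (adjusted p = 0.932). ICS1, the isochorismate synthase of salicylate synthesis, rose by 0.29 ± 0.05, and PR2, PBS3, EDS5, EDS1, PAD4, SARD1, NIMIN1, WRKY70 and WRKY54 also rose. The secreted pathogenesis-related protein PR1 measured 140.3, 148 and 132 FPKM at L and 177, 185 and 182 at S1, with no overlap, and rose by 0.37 ± 0.06 (adjusted p = 2.97e-05).

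UGT76B1, a glucosyltransferase that inactivates salicylate, N-hydroxypipecolate and isoleucic acid, rose at S1. It measured 7.1, 7.25 and 7.09 FPKM at L, 19.5, 18.6 and 17.41 at S1, 10.09, 10.2 and 11.4 at S2 and 6.39, 7.64 and 9.75 at S3. S1 stood above every other library, 1.26 ± 0.10 above L (log2 ± SE, adjusted p = 1.79e-11). The defensin gene PDF1.3 had a larger fitted rise (1.57 ± 0.22), from 3.79, 2.93 and 3.15 FPKM at L to 11.7, 9.98 and 13.8 at S1, which was lost with a pseudocount of 0.1 (adjusted p = 0.0606). MSRB7, a methionine sulfoxide reductase, rose by 1.31 ± 0.16, from 3.36 ± 0.305 to 9.97 ± 2.71 FPKM (SD, n = 3). AGP12, an arabinogalactan peptide of the cell surface, measured 23.8, 23 and 20.4 FPKM at L and 46, 45.8 and 47.1 at S1, and it was also higher at S2 (36.4 ± 2.79) and S3 (42.1 ± 0.902). ATPMEPCRB, a pectin methylesterase, rose by 1.01 ± 0.09. AT4G21870, annotated as an HSP20-like chaperone, measured 6.07, 8.05 and 7.49 FPKM at L, 16.2, 16.8 and 16.5 at S1, 9.16, 9.78 and 8.73 at S2 and 15.3, 16.4 and 15.5 at S3. AT1G11850, an uncharacterized gene, and AT1G04800, a glycine-rich protein whose gene overlaps AT1G04790, rose by 1.08 and 1.03 (log2). The first also rose at S2 (0.74) and S3 (0.99), and so did the second (0.63 and 1.14).

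Among the largest falls at S1 were those of lipid transfer proteins, small secreted proteins that carry lipids to the cuticle and, for AZI1, act in systemic priming of defence. LTP3 measured 14.8, 20.6 and 17 FPKM at L, 3.04, 3.6 and 5.18 at S1, 7.27, 10.4 and 9.27 at S2 and 3.94, 4.2 and 5.86 at S3. AZI1 measured 15.5, 13.8 and 16.9 at L, 5.59, 5.2 and 5.52 at S1, 6.48, 7.02 and 7.02 at S2 and 5.47, 5.16 and 6.35 at S3. LTP2 measured 23.57, 25.3 and 22.6 at L, 9.97, 10.8 and 11.3 at S1, 13.8, 17.2 and 19.9 at S2 and 12, 10.3 and 9.92 at S3. For all 3 genes the L libraries lay above every systemic library, and the falls at S1 were -1.91 ± 0.18, -1.34 ± 0.15 and -1.09 ± 0.12 (log2 ± SE, adjusted p = 5.42e-10, 4.37e-08 and 9.49e-09). AT5G47330, annotated as an alpha/beta hydrolase, fell from 12.2 ± 0.739 to 6.02 ± 0.375 FPKM (SD, n = 3). AT1G07050, a CCT-motif protein, and AT5G23240, a DnaJ-domain protein that overlaps AT5G23235, fell with differences of -0.89 and -0.91 (log2). LpxC1, annotated as a deacetylase and overlapping AT1G24800, differed by -1.09, a call lost when L and S1 alone were fitted (adjusted p = 0.0972). AT3G16712, an uncharacterized gene, was listed at 3.27, 3.88 and 20.4 FPKM at L, at 0 in every S1 and S2 library and at 3.97 in 1 S3 library, and its call was lost without replicate 3 of L.

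**Figure D3:**
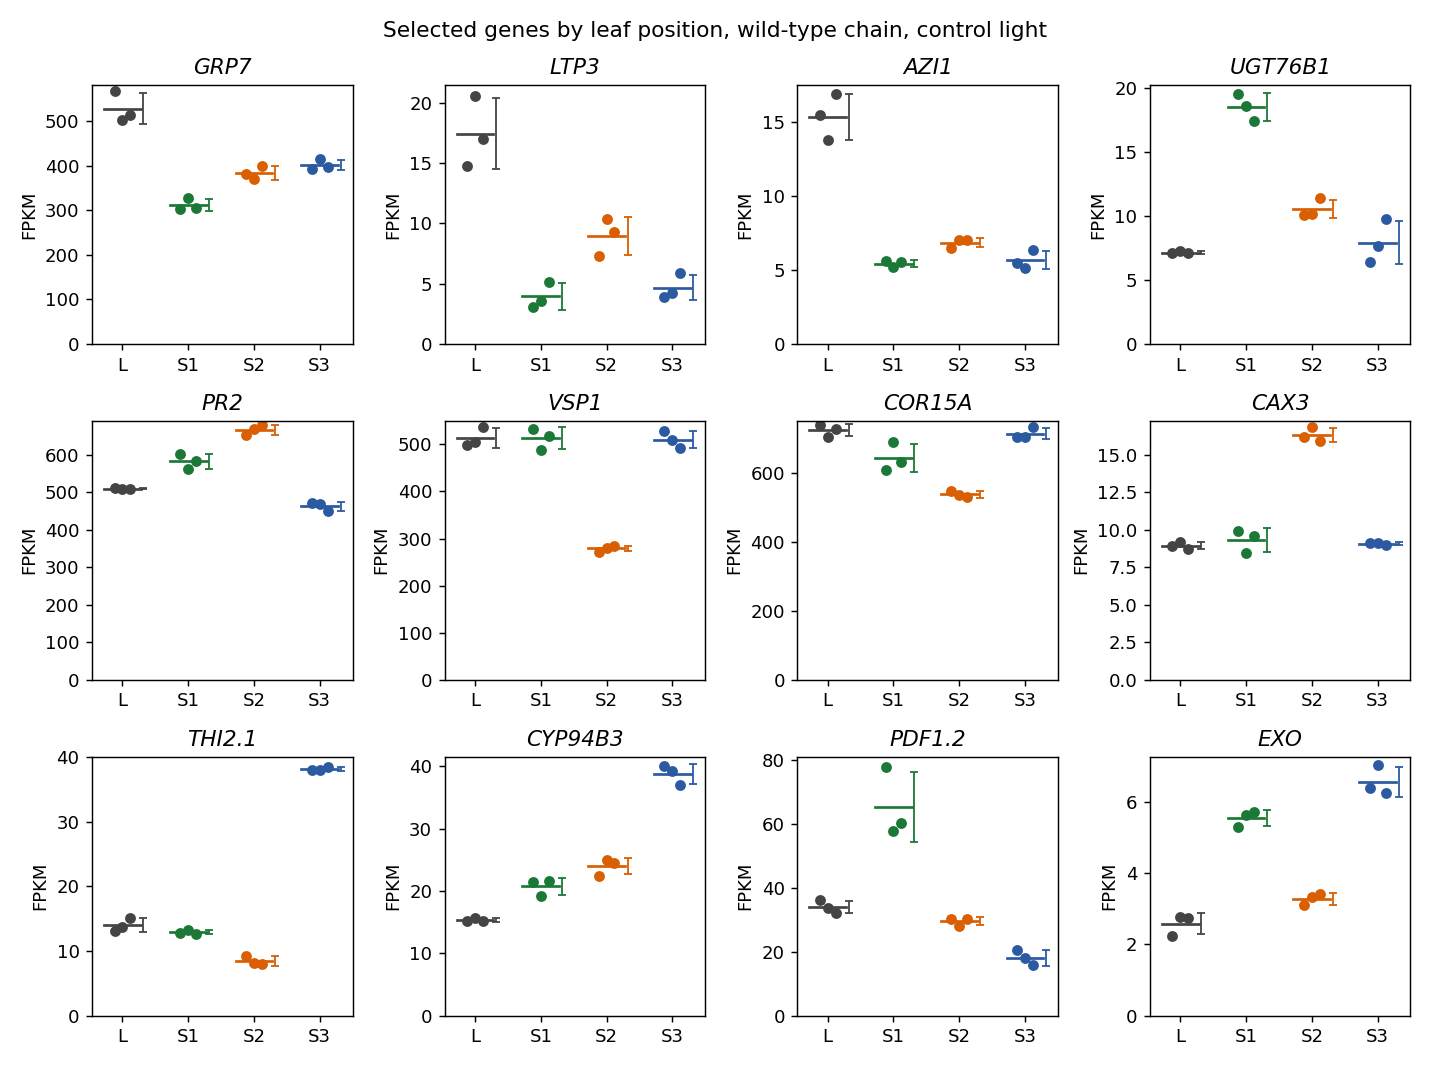
FPKM (y axis, from 0) of 12 genes in each of the 12 libraries of the 3WT chain in control light, by leaf position (x axis). Points are libraries, horizontal lines are means and bars show the SD of 3 libraries. GRP7, LTP3 and AZI1 are highest at L, UGT76B1 at S1, and THI2.1 and CYP94B3 are highest at S3 and VSP1 is lowest at S2.

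Counts of vascular markers at S1 depended on single libraries. Of 13 tested, 5 rose (6.06% of all genes did) and 2 fell (6.17%), with a median of 0.09 (log2). Without replicate 1 of L, 2 rose and 5 fell, with a median of -0.03. Without replicate 1 or 3 of S1, 2 rose, and without replicate 2 of S1, 3 rose. With L and S1 alone in the fit 2 rose and none fell, and with the replicate block or the control-light libraries of the chain alone 2 rose. The 5 are known for secondary wall and xylem formation: the peptidases XCP1 and XCP2, the cellulose synthases CESA4 and CESA7, and the laccase LAC4, with rises of 0.34 to 0.43 (log2). The 2 were the sucrose carriers SUC2, at 147 ± 13.7 FPKM at L and 126 ± 5.48 at S1, and SWEET11 (72.3 ± 6.06 and 61.7 ± 2.5, SD, n = 3). The summed level of the 13 markers was 358 to 436 FPKM at L, 360 to 382 at S1, 352 to 361 at S2 and 329 to 341 at S3. The part of vascular tissue in the other differences was not tested.

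The heat list had 7 rises (6.06% of all genes rose there) and 1 fall (6.17% fell) among 16 genes at S1. Most were at low level, with HSP70 (10.0 ± 0.434 FPKM at L and 12.5 ± 0.364 at S1) and HSP90.1 (5.04 ± 0.65 and 6.69 ± 0.481, SD, n = 3) above the others. Without replicate 2 of S1 the count of rises was 4, and with L and S1 alone in the fit it was 3. The largest was HSP17.4, a cytosolic small heat shock protein, at 1.96, 0.932 and 1.04 FPKM at L and 3.54, 4.8 and 4.77 at S1. In the WT-hpca1-WT chain no gene of the heat list was called at S1, and 7 fell at S3 (18.4% of all genes did). Relative to L, the 3WT chain was called higher for 5 genes at S1 (6.51% of all genes) and 8 at S3 (9.58%). With only the compared groups in the fit these counts were 1 and 5. In the photosynthesis list 10 of 23 genes fell (6.17% of all genes did) and 1 rose (6.06%) at S1. The falls, all of light-harvesting proteins, had differences between -0.06 and -0.21 (log2). The count of falls was 2 after quantile normalization, 0 when L and S1 alone were fitted, 5 without replicate 1 of L, and 6 without replicate 2 or 3 of S1. In the WT-hpca1-WT chain 9 rose (7.84% of all genes did) and 1 fell (13.8%) at S1. At S3 there 21 rose (5.99%) and none fell, but 1 rose after quantile normalization and 2 with L and S3 alone in the fit. Relative to L, 8 genes at S1 (3.77% of all genes) and 13 at S3 (3.34%) were called lower in the 3WT chain. These counts were 2 and 1 after quantile normalization. At S3 1 gene of the list was called higher in the 3WT chain (9.58% of all genes were).

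Many cold- and dehydration-regulated genes were highest at L. Of 24 tested, 13 fell (6.17% of all genes did) and 4 rose (6.06%) at S1. At S2 11 fell (3.39%) and none rose, and at S3 11 fell (5.46%) and 2 rose (4.99%). COR15B, a chloroplast-stabilising protein, measured 107, 96.7 and 95 FPKM at L, 62, 65.3 and 68.2 at S1, 68.4, 64.6 and 69.1 at S2 and 77.8, 79.7 and 78.8 at S3. L lay above all systemic libraries. Its relative COR15A was instead lowest at S2, with 738, 703 and 725 at L, 548, 536 and 528 at S2 and 703, 704 and 731 at S3, and fell there by 0.43 ± 0.03 (log2, adjusted p = 1.26e-12). At S1 the transcription factors CBF1, CBF2 and CBF3, which drive the cold regulon, fell with differences of -0.71, -0.67 and -0.49 (log2) from low levels of 2.44 ± 0.209, 5.33 ± 0.393 and 5.61 ± 1.05 FPKM at L (SD, n = 3). The 4 that rose at S1 were the dehydrin ERD10, the phosphatase HAI1, P5CS1 of proline synthesis and DDF1, and the count was 2 without replicate 1 or 2 of L or with L and S1 alone in the fit. KIN1 and KIN2 are close copies that can share reads, and both fell at S1.

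At S2, most touch- and wound-responsive genes of the list were higher than at L. Of the 17 on the list, 10 rose (5.46% of all genes rose there) and none fell, with a median of 0.27 (log2). At S1 4 rose (6.06% of all genes did), and at S3 5 rose (4.99%) and 2 fell (5.46%). The rises at S3 numbered 3 without replicate 2 or 3 of S3 or replicate 1 or 3 of L. WRKY18, a defence transcription factor, measured 49.3, 52 and 49.1 FPKM at L, 68.8, 71.8 and 68 at S1, 69.8, 67.5 and 71.1 at S2 and 65.7, 72.7 and 71.2 at S3, and so rose at all 3 systemic positions. TCH4, a wall-loosening xyloglucan endotransglucosylase, did so as well, from 5.78 ± 0.304 FPKM at L to 9.38 ± 1.21, 8.53 ± 1.05 and 10.7 ± 0.921 at S1, S2 and S3 (SD, n = 3). WRKY40, ERF104, ERF11, SZF1 and CZF1 were called higher than L at S2 and were not called higher at S1 or S3. WRKY40, at 25.3 ± 1.08 FPKM at L and 31.2 ± 0.858 at S2, differed between S2 and S3 by 0.31 ± 0.07 (log2 ± SE, adjusted p = 0.00209). With L and S2 alone in the fit 5 of the list were called.

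CAX3, a vacuolar calcium/proton exchanger, rose at S2. It measured 8.88, 9.17 and 8.71 FPKM at L, 9.93, 8.44 and 9.58 at S1, 16.2, 16.8 and 15.9 at S2 and 9.14, 9.09 and 8.95 at S3. S2 stood alone, 0.80 ± 0.06 above L (adjusted p = 9.66e-13) and 0.78 ± 0.06 above S3 (adjusted p = 2.61e-12). ERF13, an ethylene response factor, rose by 0.69 ± 0.10 and AT2G38240, annotated as a 2-oxoglutarate-dependent oxygenase, by 0.67 ± 0.07. AT2G22880, a VQ-motif protein that overlaps AT2G22870, was uneven, with 1.93, 6.71 and 9.33 FPKM at L, 14.4, 24.7 and 12.9 at S2 and 20.2, 19.7 and 13.3 at S3, and its calls at S2 and S3 were lost without replicate 1 of L (adjusted p = 0.11 and 0.0726), with only the compared positions in the fit (0.193 and 0.131) and with the replicate block (0.0814 and 0.0657). The call at S2 was also lost without replicate 2 of S2 (adjusted p = 0.0585). The rises of BNS and AT4G29020 (0.72 and 0.69) were lost when L and S2 alone were fitted (adjusted p = 0.111 and 0.0652).

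Vegetative storage proteins were low at S2. VSP1 measured 498, 505 and 537 FPKM at L, 533, 487 and 517 at S1, 272, 280.5 and 284 at S2 and 528, 509 and 492 at S3. Its close copy VSP2 measured 526, 536 and 556 at L, 543, 543 and 557 at S1, 326, 319.7 and 350.2 at S2 and 506, 490.3 and 486 at S3. Every S2 library lay below all others for both genes. They encode jasmonate-inducible acid phosphatases, and their differences from L at S2 were -0.88 ± 0.04 and -0.70 ± 0.04 (log2 ± SE, adjusted p = 9.51e-20 and 4e-17). RNS1, a secreted ribonuclease, measured 8.8, 9.9 and 9.36 FPKM at L, 5.53, 5.55 and 5.03 at S1, 3.85, 2.82 and 3 at S2 and 4.3, 3.58 and 4.34 at S3. PRX52, a peroxidase, measured 8.28, 9.63 and 8.27 at L, 8.9, 7.87 and 9.76 at S1, 3.26, 3.96 and 3.48 at S2 and 2.96, 3.61 and 3.65 at S3. L and S1 stood together above S2 and S3 for PRX52, and likewise for AT3G22620, annotated as a lipid transfer protein and overlapping AT3G22630, with means of 10.8 ± 1.91, 9.34 ± 1.68, 3.37 ± 0.4 and 2.89 ± 0.6 FPKM in that order. PELPK1, a cell-wall hydroxyproline-rich protein, and AT5G52390, a PAR1 protein, fell with differences of -1.09 and -1.03 (log2). CYP71A13, of camalexin synthesis, which overlaps AT2G30766, fell with a difference of -1.05, and AZI1 of -1.06. At S2, 7 of 19 salicylate genes rose (5.46% of all genes did) and 1, FMO1, fell (3.39%). Without replicate 3 of S2, or with L and S2 alone in the fit, 3 rose.

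At S3, most jasmonate genes were higher than at L. Of 26 tested, 15 rose (4.99% of all genes rose there) and 2 fell (5.46% fell), with a median of 0.19 (log2). The rises were in the synthesis enzymes LOX3, AOS, AOC1, AOC3 and OPR3, the repressors JAZ2, JAZ5, JAZ6 and JAZ9, the transcription factor MYC2, the turnover enzymes CYP94B3 and CYP94C1, and in TAT3, BSMT1 and THI2.1. LOX3 measured 104, 113 and 109.8 FPKM at L and 168, 161 and 162 at S3, and OPR3 372, 378 and 388 and 545, 546 and 534. At S1 10 of the 26 rose (6.06% of all genes did) and 2 fell (6.17%). These counts were 6 and 0 with L and S1 alone in the fit. Falls at S1 numbered 0 without replicate 2 of S1 or replicate 1 or 3 of L. At S2 10 rose (5.46% of all genes did) and 7 fell (3.39%), so the list was mixed there. CYP94B3, a hydroxylase that inactivates jasmonoyl-isoleucine, measured 15.2, 15.71 and 15.2 FPKM at L, 21.4, 19.2 and 21.6 at S1, 22.5, 25 and 24.6 at S2 and 40.0, 39.2 and 37 at S3. It was 1.28 ± 0.06 higher at S3 than at L (log2 ± SE, adjusted p = 2.88e-18), and all 3 systemic positions lay above L. The thionin THI2.1, an antimicrobial peptide gene under jasmonate control, measured 13.2, 13.8 and 15.2 FPKM at L, 12.8, 13.2 and 12.7 at S1, 9.29, 8.08 and 8.03 at S2 and 38, 38.1 and 38.6 at S3. S3 stood alone, 1.38 ± 0.12 above L (adjusted p = 1.12e-10). The gene overlaps AT1G72250, and since no source used here states strand, reads of the pair cannot be told apart.

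PDF1.2, a defensin gene responsive to jasmonate and ethylene, and its copies were lowest at S3. PDF1.2 measured 36.1, 33.6 and 32.2 FPKM at L, 78, 57.8 and 60.4 at S1, 30.3, 28.2 and 30.3 at S2 and 20.7, 18 and 15.72 at S3. S1 was highest and S3 lowest, with a rise of 0.91 ± 0.16 at S1 and a difference of -0.88 ± 0.16 at S3 against L (log2 ± SE, adjusted p = 7.64e-05 and 0.000157). PDF1.2b and PDF1.2c held the same order, with 9.38 ± 0.849, 16.6 ± 3.07, 5.37 ± 0.879 and 3.24 ± 0.373 FPKM for PDF1.2c at L, S1, S2 and S3 (SD, n = 3). These copies are nearly identical, so how reads were divided among them is uncertain. Of the 8 genes of the list tested, 4 fell at S3 (5.46% of all genes did), the fourth being PR4, a chitin-binding protein. At S1 PDF1.2, PDF1.2c and PDF1.3 rose (6.06% of all genes rose there), and with a pseudocount of 0.1 only 1 gene of the list did. The regulator ORA59 fell at S1 (-0.53 ± 0.15, adjusted p = 0.0149), a call lost without replicate 3 of L, when no gene of the list fell.

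GER3 and EXO were also high at S3. Of 12 cell wall expansion genes tested, 3 rose (4.99% of all genes did) and 1 fell (5.46%) there. GER3, a germin-like protein of the wall, measured 28.5, 29.9 and 25.4 FPKM at L, 57.4, 45.3 and 49 at S1, 44.1, 44 and 45.6 at S2 and 67.7, 71.7 and 67.4 at S3, so L was lowest and S3 highest. EXO, a brassinosteroid-responsive wall protein, measured 2.24, 2.76 and 2.73 at L, 5.29, 5.64 and 5.72 at S1, 3.1, 3.34 and 3.4 at S2 and 6.38, 7.03 and 6.25 at S3. S1 and S3 lay above L and S2, by 0.88 ± 0.10 and 1.08 ± 0.10 over L (log2 ± SE). In the senescence list 8 of 16 genes fell at S3 (5.46% of all genes did) and 1 rose (4.99%). The transcription factors NAC092, NAP and WRKY75 were among the falls. The count of falls was 5 without replicate 1 of S3 or replicate 1 of L, and with L and S3 alone in the fit. It was also 5 with the replicate block and among genes of at least 5 FPKM in 3 libraries. LTP3, LTP2, AZI1, PELPK1, PRX52, AT3G22620 and AT5G52390 were among the 8 largest falls at S3, at levels given above, and the call of PELPK1 was lost with L and S3 alone in the fit (adjusted p = 0.0555). AT2G27313, an uncharacterized gene, was listed at 3.38, 12.6 and 2.54 FPKM at S3 and at 0 at L and S2, with 1 S1 library at 2.06 FPKM and the others at 0, and AT1G11090 (an alpha/beta hydrolase overlapping AT1G11100) was called at S3 at an adjusted p of 0.0358 that was lost under several alternatives.

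Between S2 and S3, 15 of 26 jasmonate genes were lower at S2 (1.49% of all genes were) and none was higher. S2 minus S3 was -2.05 ± 0.12 for THI2.1 and -0.87 ± 0.04 for VSP1 (log2 ± SE, adjusted p = 1.26e-14 and 1.39e-19). CYP94B1, a second jasmonoyl-isoleucine hydroxylase, measured 19.9, 22.4 and 23.7 FPKM at L, 20.6, 21.2 and 23.2 at S2 and 35.8, 39.2 and 37.1 at S3, so S3 stood apart, and it rose there against L (adjusted p = 2.92e-10). EXO, AT5G62360 (a pectin methylesterase inhibitor family member), AT1G72416 (a DnaJ-domain protein) and DR4 were lower at S2 with differences from -0.74 to -0.88 (log2). In the cold list, 10 of 24 were lower at S2 (1.49% of all genes were) and none was higher. With S2 and S3 alone in the fit 5 were lower. Salicylate genes went the other way, with 5 of 19 higher at S2 (2.39% of all genes were) and none lower. PR2, a beta-glucanase, measured 510.2, 509 and 507 FPKM at L, 602, 560.4 and 584 at S1, 653, 668 and 678 at S2 and 470.3, 469 and 449 at S3, and PR1 156, 139.9 and 146 at S2 and 98.8, 91.7 and 96.9 at S3. Both genes separated S2 from S3 without overlap. BIP3, a chaperone of the endoplasmic reticulum, measured 11.1, 11.3 and 11.3 FPKM at L, 13.2, 12.2 and 12.5 at S1, 16.1, 16.2 and 17.1 at S2 and 9.44, 8.67 and 8.49 at S3, highest at S2 and lowest at S3. ARD3, SAL2 and the receptor-like protein RLP39 were higher at S2 by 0.78, 0.74 and 0.69 (log2). SAL2 and RLP39 each overlap another gene, and the call of ARD3 was lost with S2 and S3 alone in the fit (adjusted p = 0.0809). LTP3 and PDF1.2 were also higher at S2, at levels given above, calls that were lost with S2 and S3 alone (adjusted p = 0.0953) and without replicate 3 of S3 (adjusted p = 0.0688), respectively. The call of AT3G22125, an uncharacterized gene, was lost under several alternatives.

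Few genes of 2 other lists were called in any comparison with L. Of the 13 vegetative phase change genes tested, none was called at S1 (12.2% of all genes were) or S2 (8.86%). At S3 1 of them rose (4.99% of all genes did). Of the 15 cell division and young leaf genes, 1 rose (6.06% of all genes did) and 1 fell (6.17%) at S1. None of these was called at S2 (8.86% of all genes were), and 1 fell at S3 (5.46%). Such counts do not show that the genes were equal between positions. For the 12 aliphatic glucosinolate genes the counts depended on the setting. None was called at S1, 1 fell at S2 (3.39% of all genes did) and 2 fell at S3 (5.46%). But without replicate 1 of L, 6 fell at S1, 4 at S2 and 6 at S3. At S2 4 fell after either scaling or without replicate 3 of S2. At S3 none fell without replicate 1 of S3 or replicate 2 or 3 of L, with L and S3 alone in the fit, or with the control-light libraries of the chain alone. The phosphate starvation list had 3 falls among 8 tested at S1, RNS1, SQD2 and GDPD1 (6.17% of all genes fell there). It had 1 each at S2 and S3, RNS1 (3.39% and 5.46% of all genes fell). In the epidermis and trichome list, 5 of 9 fell at S2 (3.39% of all genes did) and none rose. That count was 3 without replicate 3 of L and 2 with L and S2 alone in the fit.

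The WT-hpca1-WT chain gave a second set of wild-type leaves at L, S1 and S3. There 4052 genes were called at S1 against L (21.6%) and 4573 at S3 against L (24.4%). Of these, 63.8% and 75.4% were lower as deposited, 42.9% and 49.0% after median-of-ratios scaling, and 47.8% and 50.8% after quantile normalization. Of the 1136 genes higher at S1 in the 3WT chain, 367 (32.3%, and 25.0% of the 1468 higher in the other chain) were also higher there and 171 were lower. Of the 1156 lower, 557 (48.2%, and 21.6% of 2584) were also lower and 73 higher. At S3, 259 of 934 higher genes (27.7%, and 23.1% of 1123) and 425 of 1023 lower genes (41.5%, and 12.3% of 3450) were called in the same direction, and 141 and 68 in the opposite one. The opposite calls were 15.1% of the higher and 6.31% of the lower genes at S1, and 15.1% and 6.65% at S3. Over all tested genes, 7.84% were called higher and 13.8% lower at S1 of the other chain, and 5.99% and 18.4% at S3. Over all genes, the differences from L correlated between the chains with r = 0.178 at S1 and 0.0658 at S3. The difference between chains itself was called for 1926 genes at S1 (10.3%) and 2420 at S3 (12.9%). Of these, 36.7% and 25.9% were lower in the 3WT chain as deposited, 58.8% and 46.3% after median-of-ratios scaling, and 53.5% and 44.0% after quantile normalization. At S3 of the WT-hpca1-WT chain replicate 3 stood apart: its differences from replicates 1 and 2 had SDs of 0.269 and 0.256 (log2), and those 2 replicates differed with an SD of 0.155.

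Evening genes held their difference at S1 in the second chain. There 11 of the 12 fell (13.8% of all genes did), with a median of -0.54 (log2), and no gene of the list was called for a difference between the chains at S1. GRP7 measured 792, 777 and 722 FPKM at L and 432, 454 and 473 at S1 there. At S3 5 fell (18.4% of all genes did), with a median of -0.07, and 3 (ELF4, FKF1 and COR28) were lower in the 3WT chain relative to L (3.34% of all genes were). In that chain 3 fell at S3 after either scaling, or without replicate 1 or 3 of S3 or replicate 2 of L, 2 fell without replicate 1 of L, and 1 with L and S3 alone in the fit. The difference between chains at S3 was called for 0 evening genes with a pseudocount of 0.1 and for 1 without replicate 1 of S3 of the 3WT chain. In the cold list 13 of 24 fell at S1 of the 3WT chain (6.17% of all genes did). At S1 of the WT-hpca1-WT chain 13 fell as well (13.8%). At S3 of the 3WT chain 2 rose (4.99%) and 11 fell (5.46%). By contrast, at S3 of the WT-hpca1-WT chain 11 rose (5.99%) and 2 fell (18.4%). The 11 rises numbered 5 with L and S3 alone in the fit, 6 with the replicate block and 7 with the control-light libraries of that chain alone.

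Salicylate genes differed between the chains. In the WT-hpca1-WT chain 3 rose (7.84% of all genes did) and 9 fell (13.8%) at S1, with a median of -0.15 (log2). At S3 1 rose (5.99% of all genes did) and 18 fell (18.4%), with a median of -0.85. Relative to L, the 3WT chain was higher for 12 (6.51% of all genes) and lower for 2 (3.77%) of 19 genes at S1, and higher for 17 (9.58%) and lower for none at S3. Without replicate 3 of S3 in the WT-hpca1-WT chain, 18 fell there. In the same chain PR1 measured 194, 181 and 189.7 FPKM at L, 111, 108 and 109 at S1 and 78, 78.6 and 73.8 at S3, and UGT76B1 23.2, 22.2 and 21.7 at L, 15.1, 17.9 and 16.4 at S1 and 4.85, 4.81 and 5.06 at S3. For both genes the L libraries lay above the S1 and S3 libraries of the WT-hpca1-WT chain, whereas in the 3WT chain they lay below S1. Of 17 touch genes, 10 rose (7.84% of all genes did) and 1 fell (13.8%) at S1 of the WT-hpca1-WT chain. At S3 of that chain 10 fell (18.4%) and none rose. Relative to L, 12 of the 17 were called higher in the 3WT chain at S3 (9.58% of all genes were). Of the 26 jasmonate genes, 19 rose (7.84% of all genes did) and 6 fell (13.8%) at S1 of the WT-hpca1-WT chain. At S3 of that chain 14 rose (5.99%) and 8 fell (18.4%). THI2.1, CYP94B3, VSP1 and VSP2 were among the falls at S3, with differences of -0.79, -1.54, -1.47 and -1.19 (log2). PDF1.2 ran in another order, with 6.32, 3.89 and 6.44 FPKM at L, 20.3, 18.1 and 17.5 at S1 and 62, 48.6 and 53.7 at S3. Each chain was sampled as 1 group per position, so the chain and any batch of its libraries cannot be told apart.

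**Figure D4:**
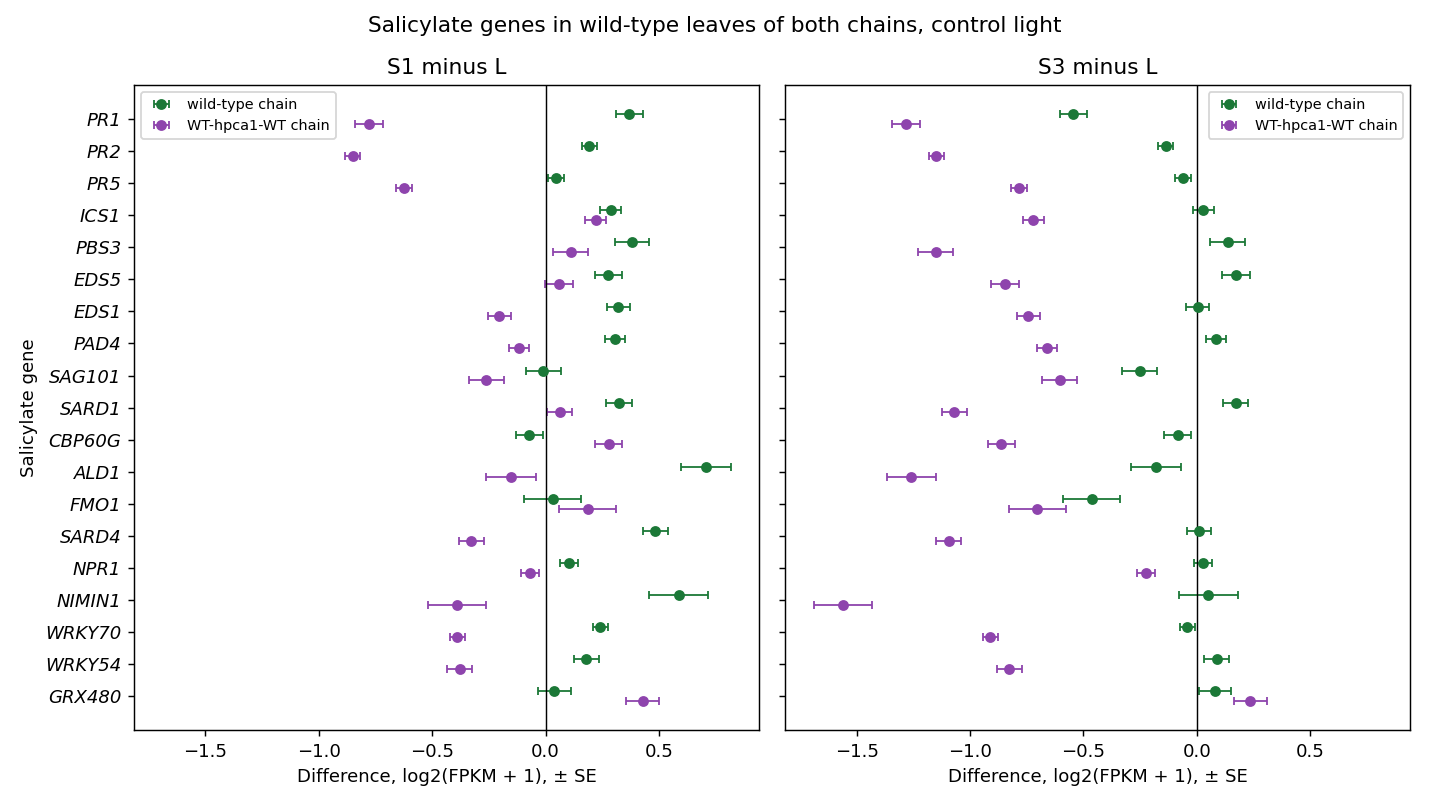
Difference from the local leaf in log2(FPKM + 1), with its SE, for 19 salicylate genes at S1 (left) and S3 (right), in the 3WT chain (green) and the WT-hpca1-WT chain (purple) in control light. At S1 most green points lie above 0 and many purple points below it, and at S3 18 purple points are called lower.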

How the data were processed

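RNA sequencing libraries of pooled leaves were deposited by the authors as FPKM per gene. Per the submitters' processing notes, Trim Galore 0.6.10, FastQC 0.12.1, HISAT2 2.2.1, SAMtools 1.18, Cufflinks 2.2.1, Cuffdiff 2.2.1 and the TAIR10 genome were used. Their roles, strand settings and counts of fragments are not given in the sources used here.

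Genes with at least 1 FPKM in 3 of the 48 chain libraries (18735 of 32824) were tested with limma 3.58.1 in R 4.3.3 on log2(FPKM + 1), which understates the change of low genes. The fit held 16 group means over 48 libraries, elevated-light groups included, so all groups share 1 estimate of the spread. P-values were adjusted by Benjamini-Hochberg within each comparison, at a threshold of 0.05. The test was checked on simulated data. The difference of S1 (or S3) minus L between the chains was tested as an interaction.

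The comparisons, the 26 gene lists (378 genes, 321 tested) and the rules were chosen with earlier results of these data known. Genes named outside the lists were the 8 largest rises and 8 largest falls of each of 4 comparisons, and the 10 widest over the 4 positions, among called protein-coding genes with a mean of at least 5 FPKM in the higher group and no overlap of replicates. Names and promoters came from RefSeq (TAIR10.1), which matched 32539 IDs. Among tested genes with a mean of at least 5 FPKM, 56 had a value of 0 in some library, which may be a failed estimate. Alternatives were the pseudocount, the filter, scaling, the samples in the fit, a replicate block and leaving out each library.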

Additional observations from a re-analysis of the deposited data

Results flagged for a closer look

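Relative to the local leaf, several named genes differed between the 3WT chain and the WT-hpca1-WT chain in a limma test of that difference itself (log2, 3WT minus the other chain, adjusted over all genes). In all, 1926 genes differed in this way at S1 and 2420 at S3. The genes named below were chosen for their large differences in the 3WT chain, and the same 3WT values enter this test. That choice favours a larger difference in the 3WT chain, so the sizes here are not an independent comparison of the chains.

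At S1, UGT76B1 differed by 1.68, since it rose in the 3WT chain (1.26) and was -0.42 in the other. AT4G21870 differed by 1.70 and AT5G47330 by -1.32, each again with opposite signs in the chains. AT1G04800 (0.80), AT1G11850 (0.65), ATPMEPCRB (0.59) and AGP12 (0.54) had differences above 0 in both chains, larger in the 3WT chain. LTP3 (-1.02), AZI1 (-0.98), LpxC1 (-0.94) and LTP2 (-0.70) were below L in both chains, and further below in the 3WT chain.

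At S3, CYP94B3 differed by 2.82 and THI2.1 by 2.18, above L in the 3WT chain and below it in the other. EXO differed by 1.36, AT1G04800 by 1.24 and GER3 by 1.16. AT2G27313 differed by 2.57, but it was listed at 0 in every control-light L, S1 and S3 library of the other chain. PDF1.2c differed by -5.56, as it was below L in the 3WT chain (-1.29) and above it in the other (4.27), where its L libraries held 0.442, 0.390 and 0.580 FPKM. LTP2 differed by -2.00 with opposite signs. LTP3 (-1.47), AZI1 (-1.29), AT3G22620 (-0.94) and PELPK1 (-0.88) were lower in the 3WT chain relative to L. The cause of these differences was not tested.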

How the results depend on the processing

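No fitted difference of a gene named by rule changed sign in the alternatives run for it. After median-of-ratios scaling the larger share of calls changed sides for S1 against L (49.4% lower), S3 against L (43.4%), S2 against S3 (62.9%), S1 against S2 (42.8%), S1 against S3 (54.6%), S1 and S3 against L in the WT-hpca1-WT chain (42.9% and 49.0%), and the chain difference at S1 (58.8%). Of 96 pairs of a list and a comparison, 31 had a median that changed sign in some alternative, all of them within 0.0958 (log2) of 0 as reported, among them the vascular markers at S1 (0.0858, and -0.033 without replicate 1 of L). The causes were not tested. Of 64 pairs of a named gene and a comparison, 49 kept their call in every alternative run for them and 15 lost it in some. Those alternatives were a pseudocount of 0.1, both scalings, only the compared groups in the fit, the replicate block and leaving out 1 library. Counts of called genes fell when only the groups compared were fitted, which leaves fewer samples to estimate the spread: 1162 for S1 against L, 814 for S2 against L, 1142 for S3 against L, 308 for S2 against S3, 231 for S1 against S2, 505 for S1 against S3, 1652 for S3 against L in the WT-hpca1-WT chain, and 1396 in the test between chains at S3. Same-numbered replicates did not deviate together (18 correlations between -0.101 and 0.0555, none over 0.1, and 0 of 12 libraries closest to its own number). A replicate block moved 4 counts by over 1.5 times: 455 for S2 against S3, 570 for S1 against S2, and 2551 and 2880 for S1 and S3 against L in the WT-hpca1-WT chain. A minimum change of 1 (log2) left 27, 29 and 29 genes for S1, S2 and S3 against L, 7 for S2 against S3, 21 for S1 against S2, 21 for S1 against S3, and 70 over the 4 positions. At S1 and S3 it left 30 and 114 in the WT-hpca1-WT chain, and 52 and 154 for chain differences. Leaving out 1 library gave 1748 to 1909 for S1 against L, 1192 to 1411 for S2, 1367 to 1754 for S3, 476 to 606 for S2 against S3, 564 to 692 for S1 against S2, 767 to 852 for S1 against S3, and 2798 to 3189 over the 4 positions. Ranges at S1 and S3 were 3235 to 3336 and 3629 to 4683 in the WT-hpca1-WT chain. The difference between chains gave 1595 to 1767 and 2060 to 2624. Without replicate 2 of S3, 476 genes were called for S2 against S3, and without replicate 2 or 3 of S1, 564 and 576 for S1 against S2. Fragment totals are unknown, so the precision of low FPKM values could not be given.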

Other observations

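Genes of surface wax synthesis, CER1 and CER6, were highest in the local leaf of the 3WT chain. Of the 9 tested genes of the epidermis and trichome list, 2 fell (6.17% of all genes did) and 1 rose (6.06%) at S1. At S3 2 fell (5.46%) and none rose. In the WT-hpca1-WT chain 2 rose (7.84%) and 2 fell (13.8%) at S1, and 4 rose (5.99%) and none fell at S3. The levels given next are those of the 3WT chain. CER1, which acts in alkane formation, measured 18.3, 17.42 and 16 FPKM at L, 14.5, 13.8 and 14.2 at S1, 11, 11.3 and 11.2 at S2 and 9.62, 8.88 and 8.39 at S3, so the L libraries lay above all others and S3 was lowest. CER6, an elongase of very-long-chain fatty acids, fell at all 3 systemic positions, with differences of -0.22, -0.25 and -0.26 (log2, limma, adjusted p = 1.51e-05, 2.84e-06 and 6.93e-07). Expansins, which loosen walls, were mixed: EXPA4 fell at all 3 positions, while EXPA5 rose at S1 and S3. IAA19, an auxin-responsive repressor, rose at S1, S2 and S3, from 6.46 ± 1.07 FPKM at L to 9.72 ± 0.746, 8.96 ± 0.508 and 9.12 ± 0.237 (SD, n = 3).

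The copper/zinc superoxide dismutase of the chloroplast, CSD2, measured 26.8, 23.8 and 23.9 FPKM at L, 30.2, 29.9 and 29.1 at S1, 33.3, 30.0 and 31.8 at S2 and 37, 37.9 and 36.7 at S3. It rose at each systemic position and was higher at S3 than at S2. In the WT-hpca1-WT chain it fell at S1 and S3 (-0.34 and -0.41, log2), and the difference between chains at S3 was 0.98 ± 0.09 (adjusted p = 3.13e-11). RNS1 also differed in sign between the chains: at S3 it fell in the 3WT chain (-1.03) and rose in the other (1.75), where it measured 2.34, 3.46 and 2.31 FPKM at L and 9.95, 11.1 and 13 at S3.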
